A study of Mus musculus with 11 samples.

Results

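The immediate early response genes are 38 named genes, AP-1, EGR, NR4A and KLF factors and early feedback regulators. Transcripts of many of them are known to appear within minutes of a stimulus. They were taken from a list of names, and no value of these libraries enters the rule. The list was, however, chosen with earlier results of these data known. All 38 were found among the 34547 genes measured, and all 38 were among the 21200 genes that passed the filter on low counts and were tested. They were followed in podocytes, the cells that form the outer layer of the glomerular filter, sorted from mouse kidneys and profiled by bulk RNA sequencing. The study asked what podocytes transcribe in nephrotoxic nephritis (NTN), a glomerulonephritis raised by an injected antiserum, and whether the toll-like receptor adaptor MyD88 in podocytes matters for it.

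Every group carried the PodCre allele, in which a promoter active in podocytes drives a Cre recombinase and the fluorophore mTomato used for the sort, on a background given as C57BL/6 in the labels and as C57BL/6N in the study's methods. PodTOM controls were PodCre/wt with unfloxed MyD88, and MyD88pko mice were PodCre/wt x MyD88flox/flox, so that Cre deletes the gene in podocytes and other kidney cells keep it. Untreated groups had 3 PodTOM libraries (AOL_1081, AOL_1082 and AOL_1086) and 2 MyD88pko libraries (BKV_729 and BKV_733). NTN groups had 3 PodTOM libraries (AOL_1225, AOL_1231 and AOL_1265) and 3 MyD88pko libraries (BKV_884, BKV_889 and BKV_890), and values below keep these orders. NTN was given to male mice of 8 to 16 weeks as 9 µl of sheep serum per gram of body weight on 2 consecutive days, with podocytes taken on day 5. Mice without NTN were 8 to 52 weeks old, and their sex is not given, so age and sex cannot be told apart from treatment. The library prefixes AOL and BKV go with genotype, and whatever else they may mark cannot be told apart from it. The labels do not say how many animals stand behind each library, although the study's n for the nephritic groups equals their number of libraries. A p-value here speaks to library-to-library spread.

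Immediate early genes are switched on through factors already present in the cell, without new protein synthesis. Kinase cascades such as ERK, JNK and p38 activate SRF with its ELK partners and CREB, which bind early promoters. The proteins made are mostly transcription factors (the FOS, JUN and ATF3 members of AP-1, the EGR, NR4A and KLF families), together with their brakes: phosphatases of the DUSP family, the BTG/TOB proteins and the ZFP36 proteins that destroy AU-rich mRNAs. Early genes also rise when tissue is digested or handled. All libraries here came from kidneys that were perfused with magnetic beads, digested with enzymes, dispersed and sorted, so levels present in the animal and levels gained on the way to lysis cannot be told apart.

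Promoter windows of 300 bases (250 before to 50 after the RefSeq start, GRCm38.p6) were held for 30 of the 38 genes, and 6 are printed as examples. No window was held for Arc, Egr1, Egr3, Fosl1, Ier2, Klf10, Myc or Zfp36l2, so the motif counts below leave these genes out. Fos, Btg2, Dusp1 and Nr4a3 are shown from the 13 windows of genes that fell in PodTOM NTN. Each holds the CRE core described below, as 7 of the 13 do. Dusp1 and Nr4a3 were not called in MyD88pko, while Gadd45b and Gadd45g rose in both genotypes. The 6 windows lie at chr12:85473640-85473939 (Fos, plus strand), chr1:134079106-134079405 (Btg2, minus strand), chr17:26508423-26508722 (Dusp1, minus strand), chr4:48045055-48045354 (Nr4a3, plus strand), chr10:80929841-80930140 (Gadd45b, plus strand) and chr13:51846425-51846724 (Gadd45g, plus strand). Capitals mark matches on either strand to the motifs searched: the CRE palindrome TGACGTCA, its core TGACG (read CGTCA on the other strand, and contained in the palindrome), the AP-1 site TGANTCA, the TATA box TATAAA, the EGR site GCGNGGGCG and the CArG box of SRF.
Fos: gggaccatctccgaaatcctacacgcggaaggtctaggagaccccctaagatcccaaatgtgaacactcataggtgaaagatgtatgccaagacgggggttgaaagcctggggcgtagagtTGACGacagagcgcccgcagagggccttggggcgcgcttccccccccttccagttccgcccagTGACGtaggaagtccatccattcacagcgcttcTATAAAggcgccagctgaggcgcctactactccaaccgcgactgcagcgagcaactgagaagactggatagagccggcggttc
Btg2: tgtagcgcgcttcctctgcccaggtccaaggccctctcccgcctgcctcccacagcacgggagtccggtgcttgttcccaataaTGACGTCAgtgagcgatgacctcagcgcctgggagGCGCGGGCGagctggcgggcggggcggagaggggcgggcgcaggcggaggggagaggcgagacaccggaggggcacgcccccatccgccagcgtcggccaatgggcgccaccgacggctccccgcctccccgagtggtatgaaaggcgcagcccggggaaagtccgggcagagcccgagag
Dusp1: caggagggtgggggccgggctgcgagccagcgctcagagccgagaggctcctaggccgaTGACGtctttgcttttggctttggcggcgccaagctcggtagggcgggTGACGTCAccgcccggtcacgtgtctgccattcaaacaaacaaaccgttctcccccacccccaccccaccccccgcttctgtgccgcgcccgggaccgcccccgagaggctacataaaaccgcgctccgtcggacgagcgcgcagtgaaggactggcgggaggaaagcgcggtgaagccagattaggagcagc
Nr4a3: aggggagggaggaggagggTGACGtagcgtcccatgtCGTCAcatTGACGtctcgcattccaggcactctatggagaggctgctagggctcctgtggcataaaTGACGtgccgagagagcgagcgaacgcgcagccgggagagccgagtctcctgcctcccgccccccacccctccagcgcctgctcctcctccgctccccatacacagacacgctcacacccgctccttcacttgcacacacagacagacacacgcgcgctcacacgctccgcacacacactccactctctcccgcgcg
Gadd45b: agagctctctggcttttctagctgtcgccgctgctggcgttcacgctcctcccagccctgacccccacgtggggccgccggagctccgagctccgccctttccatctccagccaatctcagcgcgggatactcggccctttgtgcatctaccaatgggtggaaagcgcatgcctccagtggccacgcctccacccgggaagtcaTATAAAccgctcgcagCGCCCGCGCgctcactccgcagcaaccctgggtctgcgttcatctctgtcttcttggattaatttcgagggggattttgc
Gadd45g: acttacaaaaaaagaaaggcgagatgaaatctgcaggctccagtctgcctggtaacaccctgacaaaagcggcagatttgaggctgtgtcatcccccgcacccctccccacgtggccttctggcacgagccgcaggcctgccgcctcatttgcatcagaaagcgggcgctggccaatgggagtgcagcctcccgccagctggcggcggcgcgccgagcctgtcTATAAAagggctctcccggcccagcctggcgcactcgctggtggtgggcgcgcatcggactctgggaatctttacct

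The CRE core was present in 16 of the 30 windows (53.3%), against 20.9% of the windows of 27025 genes. It stood in Fos at 2 places upstream of the TATA box, in Nr4a3 at 4 places, and in Btg2 and Dusp1 as the full palindrome. The full palindrome was found in 2 of 30 windows (6.67%) against 1.85% of all. EGR sites occurred in 10 windows (33.3% against 5.53%), Btg2 and Gadd45b among them, and a TATA box in 8 (26.7% against 14.2%), Fos, Gadd45b and Gadd45g among them. CArG boxes were found in 2 windows, those of Dusp5 and Zfp36 (6.67% against 1.59%), and an AP-1 site in 1, that of Zfp36l1 (3.33% against 7.92%). The CRE core was held by 7 of the 13 windows of genes that fell in PodTOM and by 9 of the other 17. EGR sites were held by 2 of the 13 and 8 of the 17, and a TATA box by 2 and 6. A match describes these letters only.

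Early transcripts are also known for short lives, which AU-rich elements in the 3′ untranslated region confer. The nonamer TTATTTATT was present in the 3′ untranslated region of 8 of the 38 genes (21.1%), against 7.92% of 17938 genes (GENCODE M21, the most abundant coding transcript of each). Among the 15 genes that fell in PodTOM NTN, 4 held it, and so did 4 of the other 23. These sets are not matched for length, and a longer region has more places for a match. Its median length was 1147.5 bases in the 38 genes and 996.5 bases in all. In the 15 and the 23 the medians were 1188 and 774 bases. Those 4 that fell were Fos, Dusp1, Csrnp1 and Zfp36l1, whose sites are shown with the nonamer in capitals (for Dusp1, the first of 2).
Fos (chromosome 12): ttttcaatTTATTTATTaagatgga
Dusp1 (chromosome 17): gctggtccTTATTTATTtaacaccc
Csrnp1 (chromosome 9): ctctgaatTTATTTATTtttttatg
Zfp36l1 (chromosome 12): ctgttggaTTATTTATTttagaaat

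The libraries held 14563271 to 19483013 estimated counts in the untreated groups and 20080140 to 32764201 with NTN. Myd88 was at 6.49 to 14.1 CPM in PodTOM and at 0.200 to 0.976 CPM in MyD88pko libraries, on the side of their labels. CPM here are estimated counts scaled to the library total times its TMM factor, a scaling factor from edgeR. Podocyte markers were abundant in every library, but their sum over 15 genes was lower with NTN: 48035 to 61056 CPM in untreated PodTOM, 31045 to 35524 CPM in PodTOM NTN, 49438 to 52853 CPM in untreated MyD88pko and 30605 to 43658 CPM in MyD88pko NTN. Endothelial markers (14 genes) summed to 131 to 158 CPM in untreated PodTOM and to 183 to 337 CPM in PodTOM NTN, and stood at 140 to 173 CPM and 173 to 195 CPM in the MyD88pko groups. Mesangial and smooth muscle markers summed to 124 to 205 CPM and 151 to 268 CPM in PodTOM, and those of macrophages and monocytes to 95.9 to 113 CPM and 88.5 to 154 CPM. In MyD88pko these sums were 116 to 119 CPM and 126 to 151 CPM, and 81.7 to 102 CPM and 77.3 to 94.3 CPM. With NTN in PodTOM, 8 of 13 endothelial and 4 of 11 mesangial genes tested were called higher and 0 lower (15.9% and 9.93% of all genes). Of 13 macrophage and monocyte genes, 3 were higher (Ly6c2, Ptprc and Itgam) and 1 lower (Csf1r). In MyD88pko these counts were 2 and 0, 0 and 0, and 2 and 1 (11.3% and 8.22% of all genes). Receptor genes of the vomeronasal organ, which has no counterpart in kidney, also differed: 549 of them summed to 60.7 to 91.2 CPM in the untreated libraries, to 475, 276 and 209.5 CPM in PodTOM NTN and to 376, 466 and 130.5 CPM in MyD88pko NTN. The vomeronasal sums were scaled to the plain library total. Genes above 0 numbered 18420 to 19996 in untreated and 24502 to 28672 in NTN libraries. These differences run with treatment, and their part in the results below was not tested except where a value is given. In bulk libraries of sorted cells, less RNA per cell and fewer cells with that RNA cannot be told apart.

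Some early genes were among the abundant transcripts of sorted podocytes without disease. Per length, the means in untreated PodTOM were 2928 TPM (length-scaled transcript abundance) for Egr1, 2888 TPM for Zfp36l1, 2442 TPM for Fos, 1249 TPM for Fosb and 1221 TPM for Dusp1 (n = 3), against 1023, 572, 609.8, 690.2 and 623 TPM with NTN (n = 3). Others were low in untreated PodTOM, such as Arc at 8.56 TPM, Dusp5 at 6.88 TPM and Myc at 0.455 TPM. Summed over the 38 genes, early transcripts took 25089, 21086 and 18278 CPM in untreated PodTOM and 8191, 9598 and 14774 CPM in PodTOM NTN. In MyD88pko the sums were 20597 and 21894 CPM untreated and 14051, 13612 and 19196 CPM with NTN. Every NTN sum thus lay below the untreated sums in PodTOM and in MyD88pko, with 1 NTN library of each genotype closer to them than the others were.

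**Figure D1:**
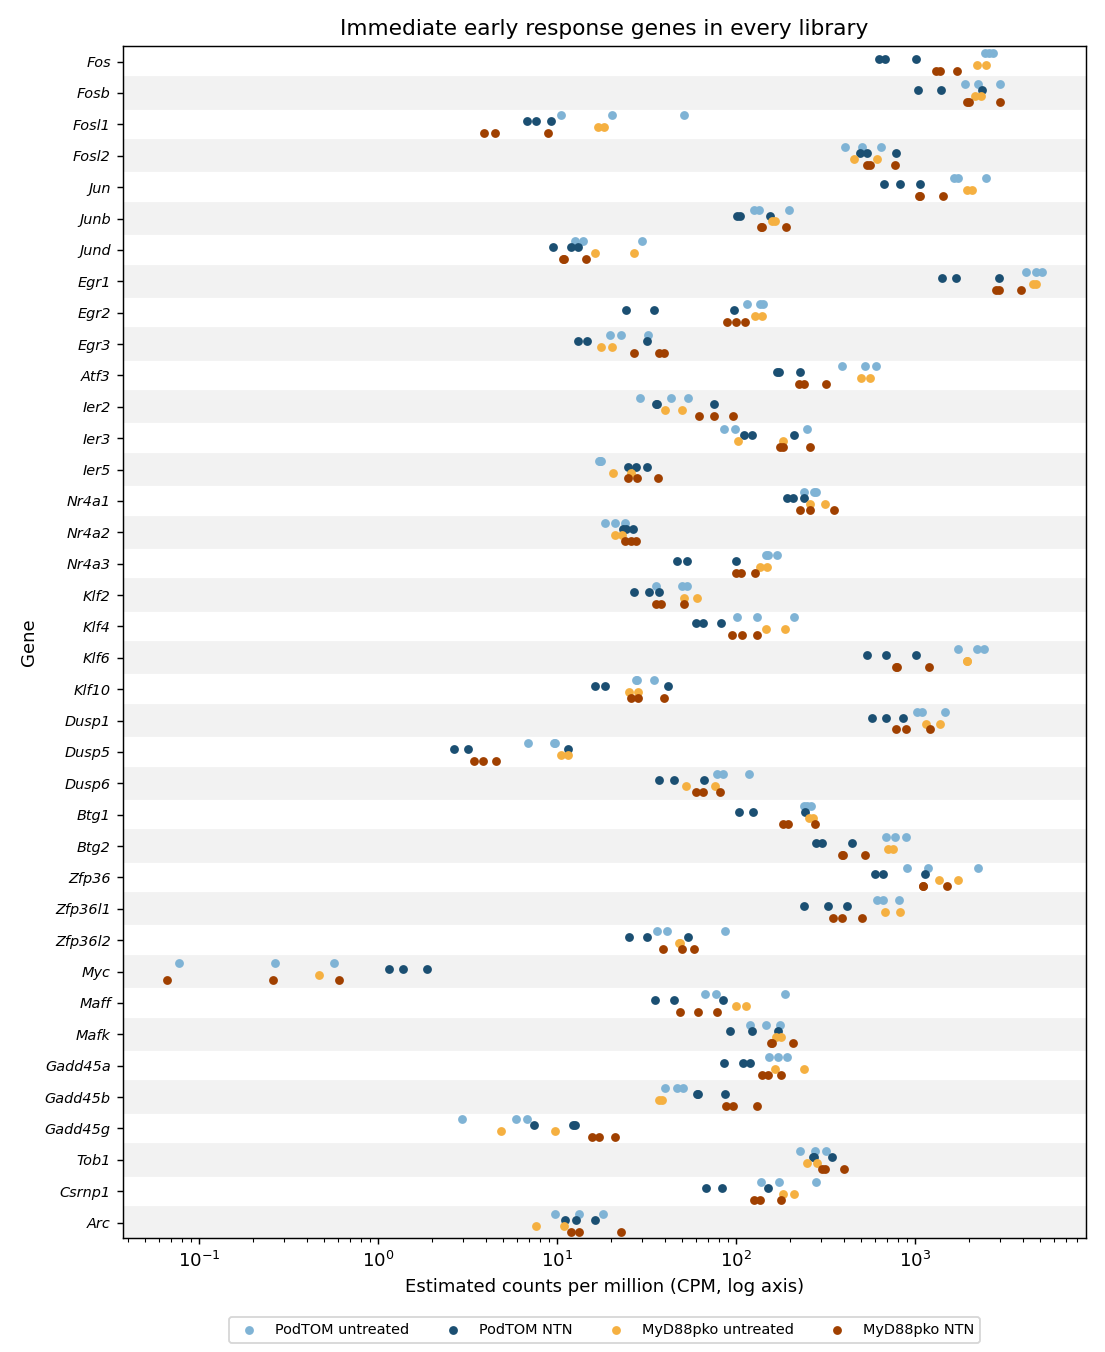
Level of each of the 38 genes in every library, in CPM on a log axis, with libraries coloured by group; the single library at 0 (Myc in untreated MyD88pko BKV_729) cannot be drawn. For Fos, Jun, Atf3, Klf6, Btg2 and Zfp36l1 every NTN library stands to the left of every untreated library of its genotype. The same holds for Fosl1, Egr1, Egr2, Nr4a3 and Klf4, and the share of all genes so separated was not counted.

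NTN in PodTOM podocytes lowered 15 of the 38 early genes and raised 3 (edgeR quasi-likelihood test, Benjamini-Hochberg adjusted p under 0.05). Over all 21200 genes, 9.93% were called lower and 15.9% higher in the same comparison. The median log2 fold change of the 38 genes was -0.64, against 0.19 over all genes tested. In MyD88pko podocytes NTN lowered 8 and raised 2, where 8.22% of all genes were lower and 11.3% higher, and the median of the 38 was -0.29 against 0.16. Called lower in both genotypes were 7 genes (Fos, Fosl1, Jun, Atf3, Klf6, Btg2 and Zfp36l1), and 2 were higher in both (Gadd45b and Gadd45g). Neither comparison called 19 of the 38. The genotypes have separate controls, and whether their responses differ is tested further below.

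The FOS and JUN proteins pair to form AP-1, a factor of proliferation, stress and inflammation programmes. Fos in PodTOM stood at 2590.2, 2709 and 2471 CPM untreated and 626, 678 and 1016 CPM with NTN. Fos in MyD88pko stood at 2231 and 2498 CPM untreated and 1371, 1305 and 1709 CPM with NTN. It fell 3.35-fold in PodTOM (log2 fold change -1.74 ± 0.18, adjusted p = 1.15e-05) and 1.62-fold in MyD88pko (log2 fold change -0.69 ± 0.20, adjusted p = 0.0220), and the groups did not overlap in either genotype. Jun, its main partner, in PodTOM measured 2475, 1732 and 1658 CPM untreated and 674, 827 and 1071 CPM with NTN. Jun in MyD88pko measured 1961 and 2068 CPM untreated and 1061, 1054 and 1436 CPM with NTN. It fell 2.28-fold in PodTOM (log2 fold change -1.19 ± 0.20, adjusted p = 6.07e-04) and 1.7-fold in MyD88pko (log2 fold change -0.77 ± 0.22, adjusted p = 0.0212), again without overlap.

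Atf3, a bZIP factor of the stress response, moved as Fos and Jun did. Atf3 in PodTOM was at 608, 523 and 393 CPM untreated and 174, 169 and 229 CPM with NTN, and in MyD88pko at 559 and 499 CPM untreated and 224, 240.1 and 317 CPM with NTN. The log2 fold changes were -1.41 ± 0.19 in PodTOM (adjusted p = 9.08e-05) and -1.02 ± 0.20 in MyD88pko (adjusted p = 0.00278). Fosl1 encodes FRA-1, which lacks the activation domain of FOS. Fosl1 in PodTOM was at 50.98, 20.3 and 10.6 CPM untreated and 7.59, 6.78 and 9.19 CPM with NTN, and in MyD88pko at 18.3 and 16.9 CPM untreated and 3.92, 4.48 and 8.89 CPM with NTN. Its fall was called in both genotypes (log2 fold change -1.79 ± 0.47, adjusted p = 0.0137 in PodTOM and log2 fold change -1.60 ± 0.50, adjusted p = 0.0398 in MyD88pko). Without the untreated library AOL_1081, the highest, its PodTOM change lost the call (-1.01 ± 0.35, adjusted p = 0.0501). Of its exon bases, 57.2% overlap Ccdc85b on the other strand, and the reads of the pair cannot be told apart there.

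The remaining FOS and JUN genes did not pass the test in either genotype. Fosb, whose short splice form lacks the activation domain, was at 2974, 2253 and 1909.8 CPM untreated and 1032, 1394 and 2366 CPM with NTN in PodTOM and at 2170.4 and 2336 CPM untreated and 1993, 1962 and 2997 CPM with NTN in MyD88pko. In PodTOM it missed the threshold (log2 fold change -0.57 ± 0.27, adjusted p = 0.120), and without AOL_1265 it was called lower (-0.97 ± 0.23, adjusted p = 0.00669). Fosl2, the FRA-2 gene, stood at 644, 507 and 408 CPM untreated and 494, 539 and 779 CPM with NTN in PodTOM and 456 and 609.7 CPM untreated and 537, 562 and 777 CPM with NTN in MyD88pko, with estimates of 0.22 ± 0.21 and 0.23 ± 0.24 that were both above 0. Junb, often an antagonist of Jun, stood at 198, 135 and 125 CPM untreated and 101, 106 and 155 CPM with NTN in PodTOM and 158 and 164 CPM untreated and 140.1, 137 and 189 CPM with NTN in MyD88pko (-0.34 ± 0.20 and -0.05 ± 0.23). Jund, the member least dependent on stimulation, stood at 29.7, 13.98 and 12.6 CPM untreated and 9.46, 12.02 and 13.1 CPM with NTN in PodTOM and 16.3 and 26.8 CPM untreated and 10.95, 10.8 and 14.5 CPM with NTN in MyD88pko (-0.70 ± 0.31 and -0.83 ± 0.34). Jund shares 52.6% of its exon bases with the antisense gene Gm11175. Of these 8 AP-1 genes, 4 were called lower in both genotypes (Fos, Fosl1, Jun and Atf3) and 4 in neither, and differences between the genes were not tested.

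EGR proteins are zinc-finger factors that bind GC-rich sites and that growth factors and injury induce. Egr1 was the most abundant early gene per length in untreated PodTOM (2928 TPM against 2888 TPM for Zfp36l1). In untreated MyD88pko it was Zfp36l1 (3182 TPM against 2929.6 TPM for Egr1), and this order was not tested. In CPM, Egr1 averaged far more than Zfp36l1 in untreated PodTOM (4678 against 696 CPM) and untreated MyD88pko (4656 against 751 CPM). Egr1 in PodTOM measured 5102, 4746 and 4185 CPM untreated and 1419, 1685 and 2934 CPM with NTN. Egr1 in MyD88pko measured 4766 and 4547 CPM untreated and 2933, 2819.6 and 3882 CPM with NTN. It fell 2.32-fold in PodTOM (log2 fold change -1.22 ± 0.22, adjusted p = 0.00121), whereas the MyD88pko change did not pass (log2 fold change -0.54 ± 0.24, adjusted p = 0.125) although the groups did not overlap. Egr2 in PodTOM measured 135, 141 and 115 CPM untreated and 24.3, 34.9 and 97.3 CPM with NTN, with AOL_1265 far above the other NTN libraries. Egr2 in MyD88pko measured 139 and 128 CPM untreated and 99.6, 88.96 and 112 CPM with NTN. The PodTOM fall was 2.5-fold (log2 fold change -1.32 ± 0.40, adjusted p = 0.0330), and leaving out AOL_1081, AOL_1082, AOL_1086, AOL_1225 or AOL_1231 ended the call. Egr3 had 19.7, 32.3 and 22.6 CPM untreated and 14.8, 13.1 and 31.99 CPM with NTN in PodTOM and 17.5 and 20.3 CPM untreated and 37.3, 27.04 and 39.4 CPM with NTN in MyD88pko. It passed in neither, with an estimate below 0 in PodTOM (-0.32 ± 0.30) and above 0 in MyD88pko (0.87 ± 0.34).

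NR4A genes encode orphan nuclear receptors that act without a known ligand, at a rate set by how much of them is made. Of these 3 genes only Nr4a3 passed the test. Nr4a3 in PodTOM stood at 168, 151 and 148 CPM untreated and 46.8, 53.00 and 99.4 CPM with NTN. Nr4a3 in MyD88pko stood at 149 and 137 CPM untreated and 106, 99.9 and 127 CPM with NTN. It fell 2.35-fold in PodTOM (log2 fold change -1.23 ± 0.22, adjusted p = 0.00111) and missed the threshold in MyD88pko (log2 fold change -0.36 ± 0.24, adjusted p = 0.287). Nr4a1 was at 273, 281 and 240.1 CPM untreated and 207, 193 and 240.3 CPM with NTN in PodTOM and 259 and 313 CPM untreated and 259, 229 and 354 CPM with NTN in MyD88pko, and Nr4a2 at 24.1, 18.5 and 20.99 CPM untreated and 23.5, 24.3 and 26.6 CPM with NTN and 23.2 and 20.96 CPM untreated and 25.8, 27.6 and 23.8 CPM with NTN. Their estimates in PodTOM were -0.31 ± 0.17 and 0.23 ± 0.18, with 95% intervals of -0.67 to 0.05 and -0.16 to 0.61.

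KLF genes encode zinc-finger factors of differentiation and vascular quiescence, and Klf6 and Klf4 have been studied in podocytes. Klf6 in PodTOM measured 2433, 2229 and 1748 CPM untreated and 538, 692 and 1018 CPM with NTN. Klf6 in MyD88pko measured 1953 and 1953 CPM untreated and 793, 784 and 1201 CPM with NTN. It fell 2.85-fold in PodTOM (log2 fold change -1.51 ± 0.23, adjusted p = 2.53e-04) and 2.11-fold in MyD88pko (log2 fold change -1.08 ± 0.24, adjusted p = 0.00647), and no NTN library reached an untreated library of its genotype. Klf4 in PodTOM measured 211, 131 and 101 CPM untreated and 65.4, 59.7 and 82.6 CPM with NTN, a 2.13-fold fall (log2 fold change -1.09 ± 0.23, adjusted p = 0.00333). Klf4 in MyD88pko measured 188 and 146 CPM untreated and 108, 95.1 and 131 CPM with NTN, a change that did not pass (log2 fold change -0.59 ± 0.25, adjusted p = 0.108). Klf2, a shear stress gene of endothelium, had 49.7, 53.4 and 35.5 CPM untreated and 37.2, 27.1 and 32.5 CPM with NTN in PodTOM and 51.3 and 60.7 CPM untreated and 35.6, 37.9 and 51.5 CPM with NTN in MyD88pko, and Klf10, a target of TGF-beta, had 34.8, 27.7 and 28.03 CPM untreated and 16.4, 18.6 and 41.7 CPM with NTN and 25.4 and 28.3 CPM untreated and 28.3, 25.8 and 39.5 CPM with NTN. Neither passed in either genotype (-0.52 ± 0.20 and -0.24 ± 0.29 in PodTOM). Without AOL_1086 Klf2 was called lower in PodTOM, and without AOL_1265 Klf10 was.

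DUSP phosphatases are made in response to MAP kinases and switch them off again. Dusp1, which acts on p38 and JNK, in PodTOM stood at 1463, 1096 and 1024 CPM untreated and 571, 685 and 856 CPM with NTN. Dusp1 in MyD88pko stood at 1148 and 1372 CPM untreated and 889, 782 and 1213 CPM with NTN. It fell 1.7-fold in PodTOM (log2 fold change -0.76 ± 0.20, adjusted p = 0.0108), and its MyD88pko change passed only when BKV_890 was left out (log2 fold change -0.39 ± 0.22, adjusted p = 0.201 with all libraries). Dusp6, the cytoplasmic ERK phosphatase, in PodTOM stood at 78.3, 117 and 84.4 CPM untreated and 37.04, 44.9 and 66.5 CPM with NTN. Dusp6 in MyD88pko stood at 52.4 and 76.4 CPM untreated and 65.4, 59.5 and 81.8 CPM with NTN. The log2 fold changes were -0.92 ± 0.23 in PodTOM (adjusted p = 0.00816) and 0.10 ± 0.25 in MyD88pko (adjusted p = 0.810). Dusp5, a nuclear ERK phosphatase at low level, was called in MyD88pko instead. Dusp5 in PodTOM stood at 9.73, 9.59 and 6.85 CPM untreated and 2.67, 3.197 and 11.5 CPM with NTN, where AOL_1265 lay above all untreated libraries. Dusp5 in MyD88pko stood at 10.5 and 11.5 CPM untreated and 4.57, 3.88 and 3.42 CPM with NTN, a 2.78-fold fall (log2 fold change -1.48 ± 0.48, adjusted p = 0.0400) whose call ended when any 1 of the 5 MyD88pko libraries was left out. Dusp5 shares 22.1% of its exon bases with an antisense gene.

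BTG and TOB proteins restrain proliferation and recruit the deadenylase that shortens mRNA tails. Btg2, a p53 target, in PodTOM was at 690.1, 891 and 775 CPM untreated and 278, 303 and 446 CPM with NTN. Btg2 in MyD88pko was at 753 and 709 CPM untreated and 393, 392 and 525 CPM with NTN. It fell 2.29-fold in PodTOM (log2 fold change -1.20 ± 0.19, adjusted p = 3.52e-04) and 1.68-fold in MyD88pko (log2 fold change -0.74 ± 0.20, adjusted p = 0.0177). Btg1 ranged from 241 to 261 CPM in untreated PodTOM and from 104 to 242 CPM in PodTOM NTN, and Tob1 from 227 to 317 CPM and from 269 to 344 CPM. Neither was called in either genotype.

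ZFP36 proteins bind AU-rich elements, Fos mRNA among their targets, and hasten decay. Zfp36l1 in PodTOM was at 818, 659 and 611 CPM untreated and 241, 327 and 415 CPM with NTN. Zfp36l1 in MyD88pko was at 683 and 819 CPM untreated and 390.3, 347 and 507 CPM with NTN. It fell 2.13-fold in PodTOM (log2 fold change -1.09 ± 0.20, adjusted p = 0.00117) and 1.81-fold in MyD88pko (log2 fold change -0.86 ± 0.22, adjusted p = 0.0125). Zfp36, which encodes tristetraprolin, had 901 to 2256 CPM in untreated PodTOM and 595 to 1137 CPM in PodTOM NTN and was not called, nor was Zfp36l2 (36.1 to 86.6 CPM and 25.2 to 53.9 CPM). Zfp36l1 overlaps the antisense gene Gm26669 over 55.9% of its exon bases, and 6.79% of its 31-base words recur in other genes, mostly its pseudogene.

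GADD45 proteins are small stress sensors that activate p38 through MAP3K4 and bind PCNA, and here they split. Gadd45b in PodTOM measured 46.8, 50.3 and 40.04 CPM untreated and 61.3, 60.7 and 87.2 CPM with NTN. Gadd45b in MyD88pko measured 36.9 and 38.7 CPM untreated and 95.6, 87.4 and 132 CPM with NTN. It rose 1.52-fold in PodTOM (log2 fold change 0.61 ± 0.19, adjusted p = 0.0256) and 2.77-fold in MyD88pko (log2 fold change 1.47 ± 0.22, adjusted p = 3.38e-04), where the call held under all 13 other settings tried. The PodTOM call of Gadd45b was lost without AOL_1081, AOL_1086 or AOL_1265. Gadd45g in PodTOM measured 2.94, 6.83 and 5.91 CPM untreated and 12.5, 7.39 and 12.3 CPM with NTN. Gadd45g in MyD88pko measured 9.69 and 4.87 CPM untreated and 15.7, 17.1 and 20.99 CPM with NTN. It rose 2.04-fold in PodTOM (log2 fold change 1.03 ± 0.34, adjusted p = 0.0376) and 2.46-fold in MyD88pko (log2 fold change 1.30 ± 0.39, adjusted p = 0.0291), with the PodTOM call lost without AOL_1081, AOL_1086, AOL_1225 or AOL_1265. The MyD88pko call was lost without BKV_733, BKV_884, BKV_889 or BKV_890. Gadd45a in PodTOM measured 192, 171 and 154 CPM untreated and 86.1, 109 and 119.9 CPM with NTN. Gadd45a in MyD88pko measured 166 and 239 CPM untreated and 151, 139 and 178 CPM with NTN. It fell 1.64-fold in PodTOM (log2 fold change -0.71 ± 0.17, adjusted p = 0.00770) and was not called in MyD88pko (log2 fold change -0.37 ± 0.19, adjusted p = 0.170). Counted over protein-coding transcripts only, its PodTOM change lost the call (-0.38 ± 0.16, adjusted p = 0.0931).

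Of the IER genes, small early response proteins with little kinship to each other, Ier5 rose in PodTOM. Ier5, which acts on heat shock factor HSF1, in PodTOM stood at 17.2, 17.6 and 17.3 CPM untreated and 27.6, 24.9 and 31.7 CPM with NTN. Ier5 in MyD88pko stood at 25.9 and 20.5 CPM untreated and 28.1, 24.9 and 36.5 CPM with NTN. The PodTOM rise was 1.62-fold (log2 fold change 0.69 ± 0.20, adjusted p = 0.0185), and MyD88pko did not pass (log2 fold change 0.36 ± 0.22, adjusted p = 0.244). Without AOL_1082 or AOL_1265 the PodTOM call was lost. Csrnp1, a nuclear protein induced by AXIN1, in PodTOM stood at 279, 174 and 139 CPM untreated and 67.7, 83.7 and 150.2 CPM with NTN, with AOL_1265 inside the untreated range. Csrnp1 in MyD88pko stood at 184 and 211 CPM untreated and 125, 136 and 178 CPM with NTN. It fell 1.96-fold in PodTOM (log2 fold change -0.97 ± 0.29, adjusted p = 0.0282) and was not called in MyD88pko (log2 fold change -0.43 ± 0.32, adjusted p = 0.350), and the PodTOM call ended without AOL_1081, AOL_1225 or AOL_1231.

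The other early genes were not called by NTN in either genotype. Ier2 ranged from 29.1 to 53.9 CPM in untreated PodTOM and from 35.6 to 75.2 CPM in PodTOM NTN, and Ier3 from 85.2 to 249.6 CPM and from 110.4 to 211 CPM. Small Maf proteins, which lack an activation domain and pair with other bZIP factors, were at 67.01 to 188 CPM and 35.4 to 84.8 CPM for Maff and at 119 to 175 CPM and 93.00 to 171 CPM for Mafk. Arc, better known at synapses, was at 9.68 to 18.1 CPM and 11.02 to 16.3 CPM. Myc had 1 to 9 counts in the untreated and 29 to 40 counts in the NTN libraries of PodTOM, and 0 to 7 and 2 to 15 counts in those of MyD88pko, and its estimate in PodTOM was 2.24 ± 1.19 (adjusted p = 0.169).

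**Figure D2:**
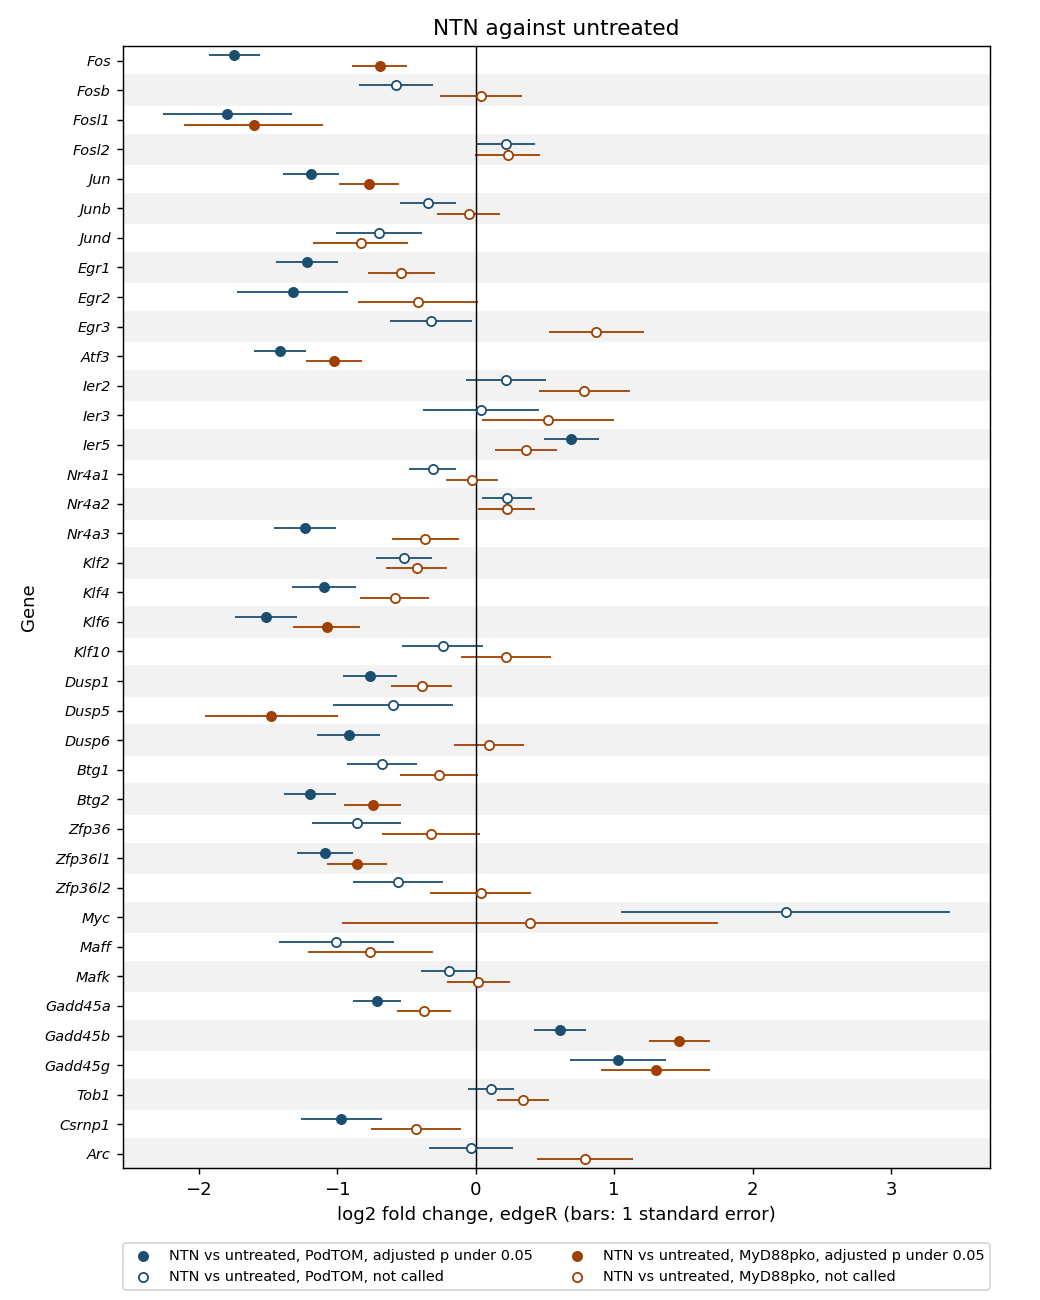
Log2 fold change of NTN against untreated for each of the 38 genes, PodTOM in blue and MyD88pko in brown, with bars of 1 standard error and filled points for an adjusted p under 0.05. Fos stands at -1.74 ± 0.18 in PodTOM and at -0.69 ± 0.20 in MyD88pko, and Gadd45b and Gadd45g are filled to the right of 0 in both genotypes.

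Within each NTN group 1 library stood above the others in most early genes. AOL_1265 held the highest level of 35 of the 38 genes among the 3 PodTOM NTN libraries (33.8% of all genes were highest there), at a median log2 deviation of 0.40 from its group. BKV_890 held the highest level of 35 of 38 among the MyD88pko NTN libraries (44.5% of all genes), at a median deviation of 0.30. The lead of BKV_890 depended in part on scaling, since a smaller TMM factor gives a higher CPM. These factors were 1.12, 1.13 and 0.925 in MyD88pko NTN, against 1.07, 0.986 and 0.988 in PodTOM NTN. In TPM, which uses no such factor, Fos stood at 1351.7, 1281.2 and 1352.3 in MyD88pko NTN. Egr2 there was at 110.4, 90.6 and 97.5 TPM, while Klf6 was still highest in BKV_890 (387, 380 and 465 TPM). AOL_1265 and BKV_890 had the lowest vomeronasal signal of their group (209.5 and 130.5 CPM). Podocyte marker sums did not follow the same order in PodTOM NTN, at 31045 to 35524 CPM, while BKV_890 had 43658 CPM against 32041 and 30605 CPM. Endothelial markers were lowest in AOL_1265 of its group (183 against 337 and 322 CPM) and at 195, 173 and 183 CPM in MyD88pko NTN. In untreated PodTOM, AOL_1081 held the highest level of 24 of the 38 genes (42.7% of all genes).

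Counts of calls depended on these libraries. Without AOL_1265, 23 of the 38 genes were called lower in PodTOM, where 10.5% of all genes were, and none higher: Fosb, Egr3, Klf10, Dusp5, Btg1, Zfp36, Zfp36l2 and Maff joined the 15. Without AOL_1081 12 were lower (8.95% of all genes). Without the 3 libraries of most vomeronasal signal (AOL_1225, BKV_884 and BKV_889), 11 were lower and 1 higher in PodTOM (5.95% and 7.16% of all genes). The MyD88pko comparison was then left with 1 NTN library, BKV_890, which is assumed to vary like the other groups. BKV_890 was the highest of its group in 35 of the 38 genes. The median log2 fold change of the 38 genes in that comparison was -0.004, against -0.29 with all libraries. With the log2 vomeronasal signal as a covariate, an alternative chosen after seeing the data, Fos was the only gene lower in PodTOM (-1.24 ± 0.23, adjusted p = 0.00792), where 0.675% of all genes were, and none was lower in MyD88pko, where 1.23% of all genes were and the median of the 38 genes turned from -0.29 to 0.24. That signal does not overlap between untreated and NTN libraries, so a fit with it cannot hold it apart from treatment. In MyD88pko, leaving out BKV_729, BKV_733, BKV_884 or BKV_889 left 3, 1, 3 and 2 genes called lower, where 3.14%, 2.24%, 4.01% and 4.77% of all genes were. The calls of Fos, Fosl1, Jun and Btg2 there ended without any 1 of these 4 libraries, that of Zfp36l1 without BKV_733 or BKV_889 and that of Klf6 without BKV_733, while Atf3 kept its call each time.

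**Figure D3:**
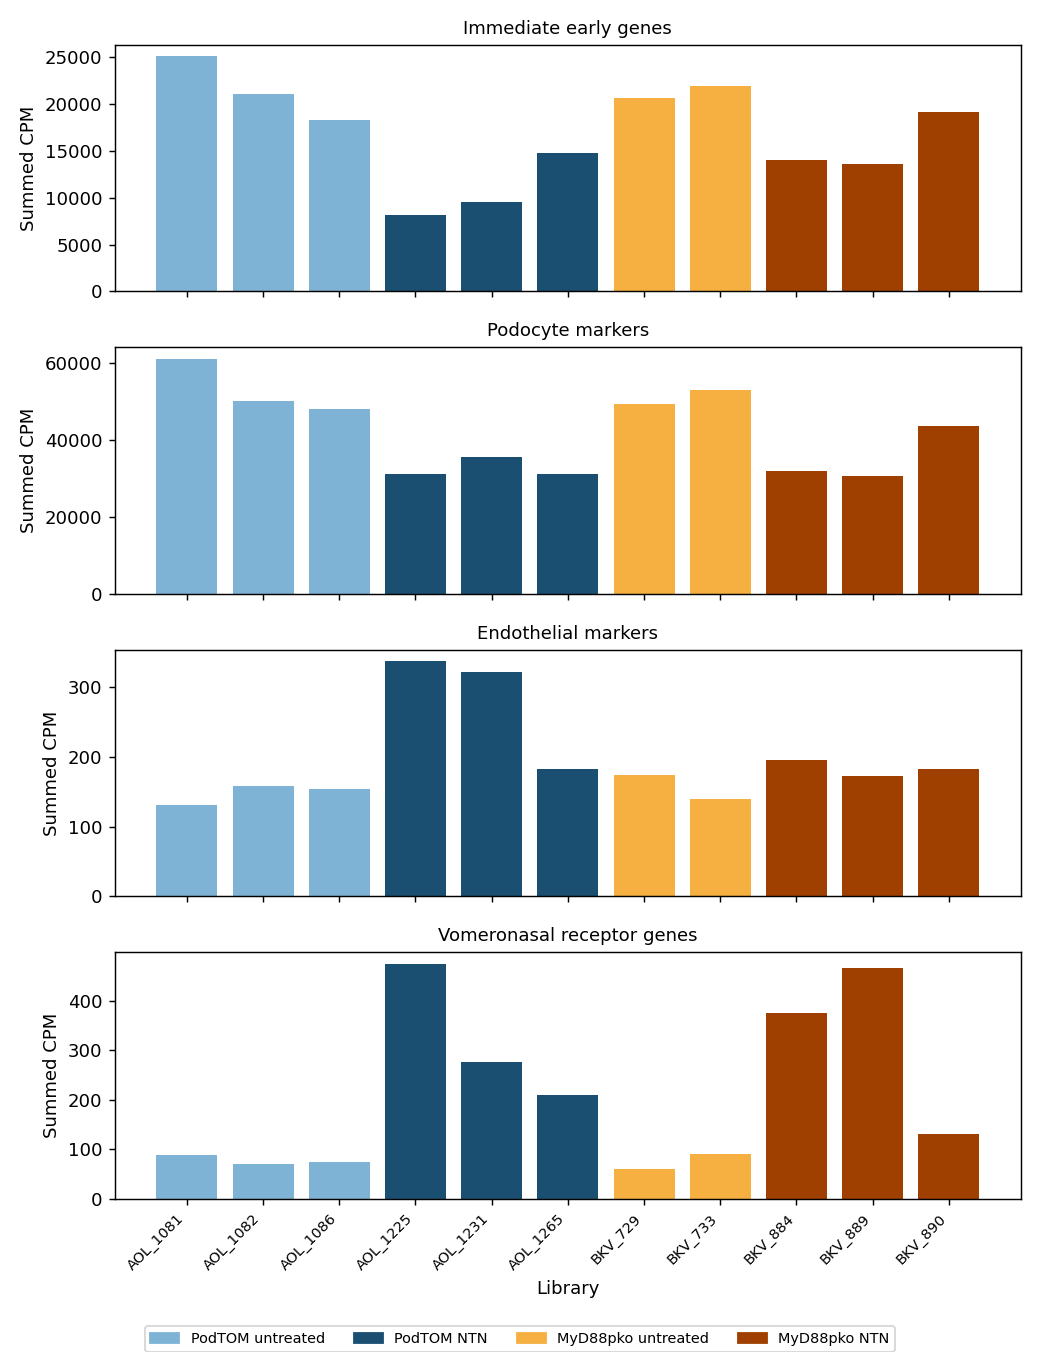
Summed CPM in each library of the 38 early genes, the 15 podocyte markers, the 14 endothelial markers and the 549 vomeronasal receptor genes, with bars coloured by group. The vomeronasal sums are scaled to the plain library total, the others with TMM. AOL_1265 (14774 CPM) and BKV_890 (19196 CPM) have the tallest early gene bars and the shortest vomeronasal bars of their NTN groups.

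Nephritic MyD88pko podocytes were then set against nephritic PodTOM podocytes, the contrast that asks what the adaptor changes in disease. No early gene was called in either direction by edgeR, where 0% of all genes were called higher and 0.0613% lower. Estimates were above 0 for 35 of the 38 genes, with a median log2 fold change of 0.44 against -0.01 over all genes. At an unadjusted p under 0.05, 16 of the 38 were higher and 0 lower, where 2.55% and 3.5% of all genes were. Levels in all 3 MyD88pko libraries exceeded all 3 PodTOM libraries for 6 genes (5.29% of all genes) and lay below for 1, Myc (7.36%). Since AOL_1265 and BKV_890 were high across most of these genes, the genes are not separate observations.

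The 6 genes without overlap were Fos, Nr4a3, Klf4, Gadd45a, Gadd45b and Gadd45g. The margin was narrow for Nr4a3 (99.9 CPM in BKV_889, 99.4 CPM in AOL_1265) and Gadd45b (87.4 and 87.2 CPM in the same libraries). Fos was the closest to the threshold, at 626, 678 and 1016 CPM in PodTOM and 1371, 1305 and 1709 CPM in MyD88pko, a log2 difference of 0.92 ± 0.18 with a 95% interval of 0.54 to 1.30 (adjusted p = 0.107). Nr4a3 differed by 0.74 ± 0.22 (0.28 to 1.21, adjusted p = 0.416) and Gadd45b by 0.59 ± 0.19 (0.20 to 0.98, adjusted p = 0.464). Egr1 was at 1419, 1685 and 2934 CPM against 2933, 2819.6 and 3882 CPM, overlapping through AOL_1265 (0.67 ± 0.22, adjusted p = 0.544). DESeq2 called 3 of the 38 higher (Fos at an adjusted p of 1.54e-05, Nr4a3 at 0.0473 and Gadd45a at 0.0489) and none lower. It called 0.435% of the 13794 genes to which it gave an adjusted p higher. Without AOL_1265 edgeR called 6 higher, where 0.0957% of all genes were: Fos (1.16 ± 0.17), Egr1 (1.05 ± 0.19), Egr2 (1.76 ± 0.19), Egr3 (1.31 ± 0.26), Nr4a3 (1.15 ± 0.17) and Btg1 (0.94 ± 0.19). Leaving out any other NTN library gave 0 calls. With no filter on low counts edgeR called 4 higher with all libraries (Fos, Egr2, Nr4a3 and Klf4), where 0.0822% of all genes were, and with the vomeronasal covariate it called Fos, where 0.0142% were.

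**Figure D4:**
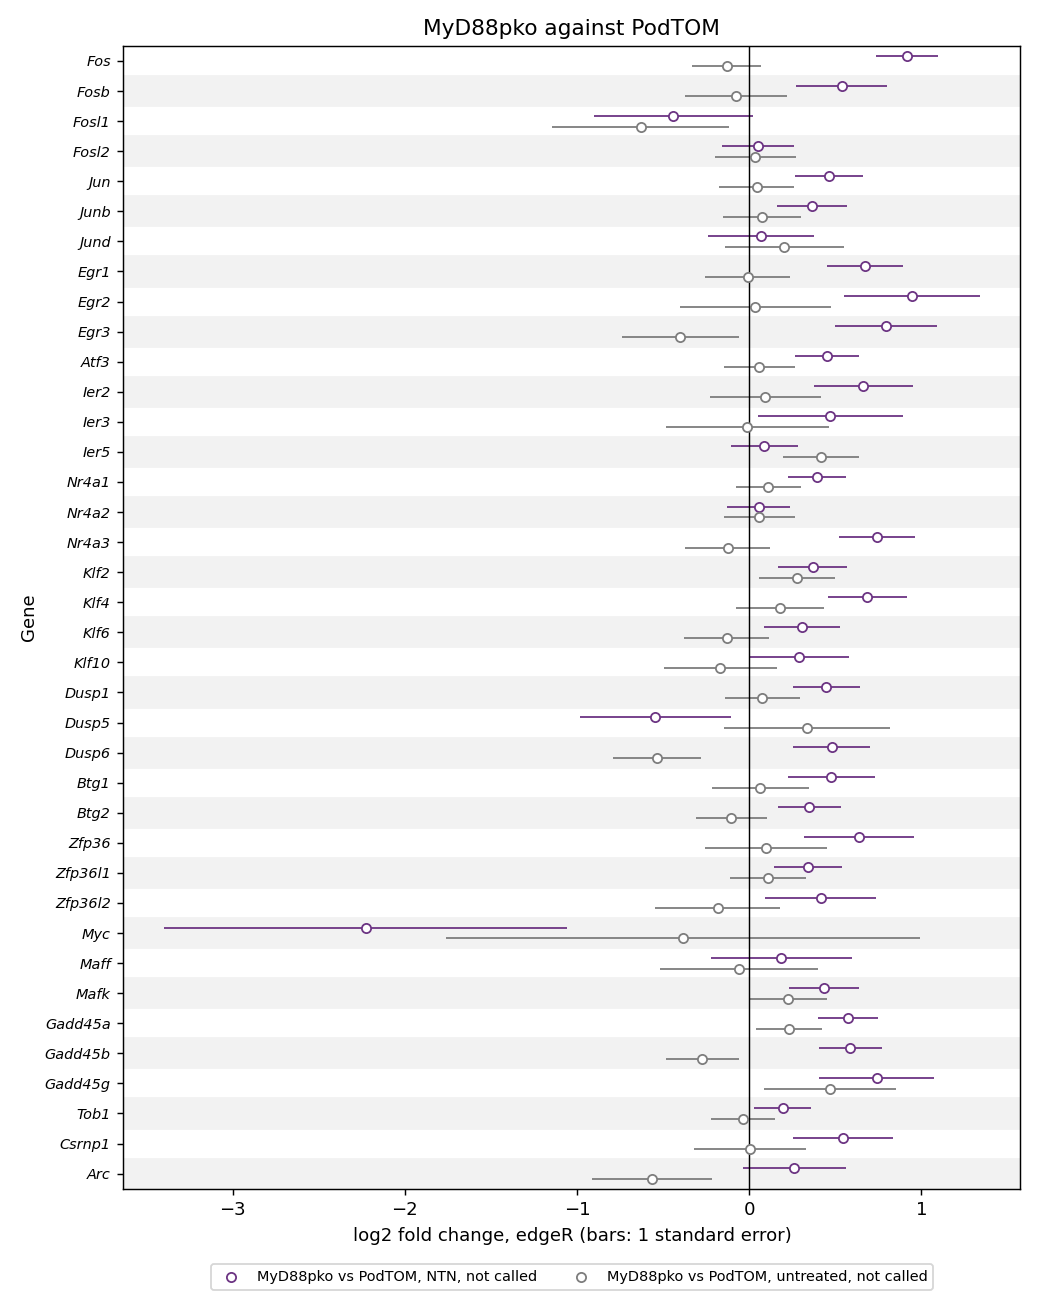
Log2 fold change of MyD88pko against PodTOM for each of the 38 genes, with NTN in purple and untreated in grey, bars of 1 standard error and open points throughout because no gene had an adjusted p under 0.05. With NTN 35 of 38 points lie to the right of 0, and without it 21 do.

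Untreated podocytes were compared in the same way. Without NTN, 0 of the 38 genes were called in either direction by edgeR (0% of all genes higher, 0.0189% lower), and at an unadjusted p under 0.05 none was, where 2.56% and 3.04% of all genes were. DESeq2 called 0 as well. Estimates were above 0 for 21 genes and below for 17, at a median of 0.04. Fos differed by -0.13 ± 0.20 (-0.56 to 0.29) and Egr1 by -0.01 ± 0.25 (-0.53 to 0.52). The MyD88pko side had 2 libraries, and these 95% intervals hold differences in both directions.

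Whether NTN changed early genes differently in the 2 genotypes was asked by the interaction term. It called 0 of the 38 in either direction (0% of all genes higher, 0.00472% lower). At an unadjusted p under 0.05, 5 were higher (Fos, Egr3, Nr4a3, Dusp6 and Gadd45b) and 0 lower, where 2.76% and 3.05% of all genes were. The Fos response in MyD88pko lay 1.05 ± 0.27 above that in PodTOM (0.48 to 1.62, adjusted p = 0.468). Of the 38, DESeq2 called Fos alone (adjusted p = 0.0151). It called 0.12% of the 19124 genes to which it gave an adjusted p higher. The 8 genes called lower in PodTOM but not in MyD88pko are therefore not shown to differ between them.

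At the level of single transcripts, 54 of 108 matched transcripts of these genes reached a mean of 10 CPM. NTN in PodTOM raised 4 and lowered 11 of them (3.09% and 2.34% of all transcripts tested), and in MyD88pko 2 rose and 2 fell (2.6% and 1.7%). The 58207 transcripts behind these shares passed the filter on low counts without the 10 CPM minimum, so the sets are not matched for level. Zfp36l1 changed its make-up. Zfp36l1-203 in PodTOM measured 216, 236 and 219 CPM untreated and 27.8, 47.01 and 48.6 CPM with NTN, a share of the gene of 33.8% and 12.5% on average. Zfp36l1-203 in MyD88pko measured 219.9 and 267 CPM untreated and 48.7, 41.6 and 66.9 CPM with NTN, a share of 34.6% and 11.6%. Zfp36l1-202 went the other way, at 3.84, 32.1 and 30.98 CPM untreated and 96.2, 122 and 131 CPM with NTN in PodTOM (3.37% and 35.3%) and at 19.2 and 15.3 CPM untreated and 135, 144 and 179 CPM with NTN in MyD88pko (2.46% and 33.8%). The log2 fold changes in PodTOM for Zfp36l1-203 (-2.44 ± 0.25, adjusted p = 8.33e-04) and Zfp36l1-202 (2.38 ± 0.59, adjusted p = 0.0458) had opposite signs. On the log2(TPM + 1) scale, which divides by transcript length, the change of the whole gene Zfp36l1 was -2.36 ± 0.17 in PodTOM and -1.98 ± 0.19 in MyD88pko by limma. Shares come from estimated counts, and kallisto divides reads common to several transcripts by likelihood.

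**Figure D5:**
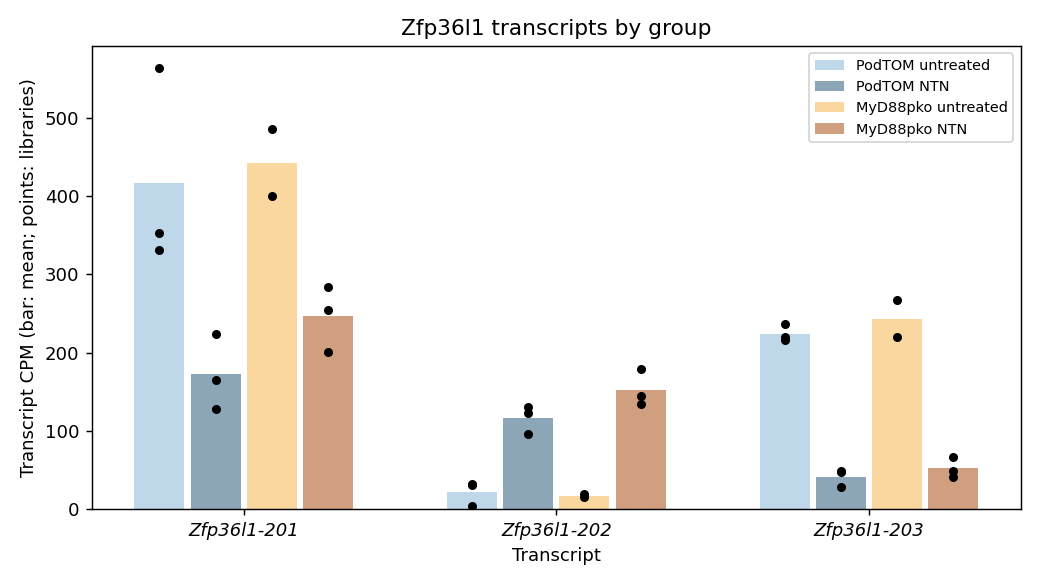
Level of the 3 Zfp36l1 transcripts above 10 CPM in the 4 groups, as CPM scaled over all transcripts, with bars for means and points for libraries. Zfp36l1-203 is lower and Zfp36l1-202 higher in every NTN library than in any untreated library of either genotype.

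Some other transcripts moved apart from their genes. Nr4a2-202 rose in PodTOM (log2 fold change 1.74 ± 0.29, adjusted p = 0.00872) from 28.1% to 75.7% of Nr4a2, while the gene as a whole was not called. Maff-201 fell in PodTOM (-3.84 ± 0.90, adjusted p = 0.0388), at 164, 28.7 and 21.8 CPM untreated and 5.89, 1.93 and 7.19 CPM with NTN, and AOL_1081 alone held most of its untreated signal. Gadd45a-204, a transcript that keeps an intron, averaged 29.1 ± 4.96 CPM (SD, n = 3) in untreated and 2.47 ± 2.37 CPM (SD, n = 3) in NTN PodTOM without passing the test (-3.55 ± 1.00, adjusted p = 0.0724), and fell in MyD88pko (-4.92 ± 1.10, adjusted p = 0.0368). Gadd45a-201, the main coding form, was at 113 ± 13.1 CPM and 100.4 ± 12.2 CPM (SD, n = 3 each) in PodTOM, 68.9% and 94.5% of the gene, and was not called (-0.17 ± 0.16, adjusted p = 0.581). Gadd45a shares 19.1% of its exon bases with E230016M11Rik on the other strand.

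Genes around the early response were counted from lists of related genes, to be read against the 15.9% of all genes higher and 9.93% lower in PodTOM and the 11.3% and 8.22% in MyD88pko. Of 17 kinases upstream of early promoters, 6 were lower and 0 higher in PodTOM NTN (median log2 fold change -0.31 against 0.19 over all genes), among them Braf (-0.76 ± 0.16, adjusted p = 0.00289), Rps6ka3 (-0.71 ± 0.17, adjusted p = 0.00574), Mapk8 (-0.79 ± 0.19, adjusted p = 0.00672) and Map2k3 (-0.94 ± 0.28, adjusted p = 0.0240). In MyD88pko 2 were lower (Braf and Rps6ka3) and 1 higher (Rps6ka1). Factors that bind early promoters divided: of 16, 3 were higher and 3 lower in PodTOM, with Creb1, the CRE-binding factor, lower (-0.85 ± 0.16, adjusted p = 0.00163) and its relative Atf1 higher (0.94 ± 0.20, adjusted p = 0.00274), Mef2c higher (2.70 ± 0.55, adjusted p = 0.00251) and Mef2a lower (-0.48 ± 0.13, adjusted p = 0.0148). Srf itself was at 111 to 148 CPM untreated and 94.5 to 173 CPM in NTN PodTOM and was not called. In MyD88pko 2 of the 16 were higher and 3 lower, the latter being Crtc3 (-0.73 ± 0.16, adjusted p = 0.00542), Mef2a and Creb1.

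Among 15 other bZIP partners, 2 were higher and 4 lower in PodTOM (15.9% and 9.93% of all genes) and 2 and 4 in MyD88pko (11.3% and 8.22%). Bach1 was lower in both (-1.22 ± 0.24, adjusted p = 0.00218 in PodTOM), as was Mafg, while Atf4, the integrated stress response factor, was higher in both (0.64 ± 0.17, adjusted p = 0.0108 in PodTOM). Of 9 other KLF and EGR genes tested, Klf9 and Klf7 were lower in both genotypes and none was higher. Of 17 other feedback regulators tested, 6 were lower and 1 higher in PodTOM, with Dusp16 (-0.94 ± 0.16), Spred2 (-0.85 ± 0.19) and Tnfaip3 (-1.25 ± 0.28) lower and Spry4 higher (2.02 ± 0.47). In MyD88pko 3 of them were lower and 0 higher.

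Secreted and enzymatic early genes were counted apart from the 38. Of 18 tested, 9 were higher and 1 lower in PodTOM NTN (15.9% and 9.93% of all genes), at a median log2 fold change of 1.85, and 6 and 1 in MyD88pko (11.3% and 8.22%), at a median of 1.41. Ccn2, a matricellular protein gene, was at 373 to 489.6 CPM untreated and 1733 to 2187 CPM in NTN PodTOM (2.22 ± 0.24, adjusted p = 1.46e-05). Cxcl1, the neutrophil chemokine gene, was at 2.704 to 5.22 CPM and 30.3 to 38.8 CPM (2.96 ± 0.33, adjusted p = 1.80e-05). Thbs1, which encodes thrombospondin, fell instead (-1.92 ± 0.19, adjusted p = 7.17e-06). Heat shock genes, 14 in all, had 1 higher and 3 lower in PodTOM and 4 higher and 0 lower in MyD88pko, with Hspa1a lower in PodTOM (-1.92 ± 0.47) and Dnajb1 higher in both (2.71 ± 0.40 and 2.84 ± 0.48). None of these lists had a gene called between genotypes or in the interaction.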

How the data were processed

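RNA of sorted mouse podocytes was sequenced in 11 libraries. Per the labels, the authors pre-amplified the RNA with poly(T) and random primers. According to the study's methods, they trimmed reads with cutadapt 3.5 and quantified transcripts with kallisto 0.43.1 (Ensembl 90). The deposited values are estimated counts and TPM per transcript, which depend on how kallisto divides shared reads. Here 107987 of 109282 transcripts were matched by identifier to GENCODE M21 (GRCm38), summed to 34547 genes and rounded. The 1295 others were left out of all sums.

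Genes passing filterByExpr (minimum count 10) were tested with edgeR 4.0.16 (R 4.3.3): TMM scaling, robust quasi-likelihood F test, 4 group coefficients, all 11 libraries, and Benjamini-Hochberg adjustment over 21200 genes at 0.05. Intervals are 95%. Alternatives used DESeq2 1.42.0, limma 3.58.1 on log2(TPM + 1) for genes with a mean of 1 TPM or more, other filters, sample sets and transcripts. Depth was 14563271 to 32764201 estimated counts per library. The fits were tested on simulated data.

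The 38 genes, the related lists and the tests were chosen with earlier results of these data known. Every gene was accounted for. Values in every library were given for genes called in any comparison and for all AP-1, EGR, NR4A and KLF genes, the rest by range. Of each related list, up to 4 genes per comparison with the smallest adjusted p under 0.05 and a mean of at least 1 CPM could be named. Transcripts with a mean of at least 10 CPM were described. Srf was named after its values were seen. Values of some listed genes are not reported here.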

Additional observations from a re-analysis of the deposited data

How the results depend on the processing

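The 3 early genes higher with NTN in PodTOM became 1 without the 3 libraries of most vomeronasal signal (7.16% of all genes) and 0 with limma on log2(TPM + 1) (7.72%), and ranged from 0 to 3 when each library was left out in turn. The 15 lower became 23 with limma (19.1% of all genes, against 9.93%) and 1 with the vomeronasal covariate (0.675%), which was added after seeing the data, and ranged from 12 to 23 when each library was left out. In MyD88pko the 2 higher became 4 without a filter (9.34% of all genes), 4 with only the 2 groups compared (13.8%), 4 with DESeq2 (16.3%), 1 with limma (8.26%) and 1 without the 3 libraries (3.55%), with a leave-one-out range of 1 to 2. The 8 lower became 0 without the 3 libraries (0.986%) and 0 with the covariate (1.23%), with a leave-one-out range of 1 to 8. Between genotypes with NTN, the 0 higher became 4 without a filter (0.0822%), 3 with DESeq2, 1 with limma (0.0513%) and 1 with the covariate (0.0142%), and 0 to 6 when each library was left out. In the interaction, 0 higher became 1 with DESeq2. Without the 3 libraries, BKV_890 was the only MyD88pko library left with NTN, so the MyD88pko counts there rest on 1 library. No called value changed sign, and the cause of these shifts was not tested. On the TPM scale the median over all genes in PodTOM was -0.16 in place of 0.19, and that of the 38 genes -0.85 in place of -0.64. Low counts limit Myc, at 0 to 40 estimated counts. No paired analysis was possible because the libraries carry titles and share no replicate numbers across groups.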
